A study of Homo sapiens with 6 samples.

Results

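The mitochondrial ribosomal protein genes are the nuclear genes whose symbols begin with MRPL (large subunit) or MRPS (small subunit) followed by a number. They were taken by symbol from the probe annotation, each through a probe set assigned to that gene alone, which gave 65 genes of the 14232 with a probe set of their own. Each of the 65 had exactly 1 such probe set. RefSeq lists 77 genes with symbols of this pattern, and the other 12 were MRPL3, MRPL9, MRPL20, MRPL36, MRPL45, MRPL53, MRPL57, MRPS6, MRPS12, MRPS18A, MRPS18C and MRPS28. Of these 12, 10 lie on probe sets shared with another gene, such as MRPS12 with SARS2, and none of the 12 was given a value. Of the 65 members, 43 belong to the large subunit (MRPS30 among them, since its protein sits there) and 22 to the small subunit.

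The cells were MO3.13, a human line called an oligodendroglioma line in the labels and elsewhere described as a fusion of a rhabdomyosarcoma line with human oligodendrocytes. There were 3 control arrays, of cells whose only stated condition was growth in DMEM with 10% fetal bovine serum. The 3 other arrays were of cells exposed for 3.5 h to recombinant mouse Klotho at 0.4 µg/mL in DMEM without serum, so that, as labelled, Klotho and the absence of serum cannot be told apart. Klotho is a membrane and circulating protein, the co-receptor for the hormone FGF23, and the study's title asks about its effect on signalling pathways in this line. Whether the 3 samples of a group were grown separately is not stated in the labels, so the p-values speak only of the spread among these arrays, and that spread could be technical. Array medians lay between 6.36 and 6.47 on the log2 scale. Of 7 measured oligodendrocyte markers, CNP alone had a probe set above the median signal of all probe sets (6.40) and that of MOG lay below the lower quartile (4.70), whereas 5 of 6 muscle markers, MYOD1, MYOG, DES, CDH15 and CHRNA1, lay above the upper quartile (8.04). Astrocyte, neuron and blood markers were mostly dim, with 1 of 5, 0 of 4 and 0 of 5 above the median.

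Mitochondria keep their own ribosome, which makes the few membrane proteins of the respiratory chain and the ATP synthase that mitochondrial DNA encodes. Its ribosomal RNAs come from that DNA, but all its proteins are encoded in the nucleus, made in the cytosol and imported, so that building it draws on both genomes. Some of the proteins descend from the bacterial ribosome, and others were added in mitochondria and shield a core with much reduced RNA. Many promoters of nuclear genes for mitochondria carry sites for the transcription factors NRF1 (nuclear respiratory factor) and GABP, an ETS family factor, and YY1 is a further factor tied to them.

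Promoters of the members were searched for short letter strings, since shared promoter letters are a property of these genes that is independent of the arrays. RefSeq promoters (GRCh38.p14, 250 bases before to 50 after the start) were at hand for 58 of the 65 genes (not for MRPL2, MRPL10, MRPL13, MRPL15, MRPL21, MRPL23 and MRPL35), with 73 promoters in all. The ETS letters CCGGAAG were found on either strand in 24 of the 58 genes (41.4%), against 16.9% of the 11386 measured genes with a promoter and 12.2% of all 27305 genes in the table. The YY1 letters AAGATGGC were found in 16 genes (27.6%), against 4.93% of measured genes and 3.52% of all. The NRF1 letters (GCGCA, any base, GCGC) were found in 6 (10.3%) against 10.3% of measured genes, the SP1 letters GGGCGG in 37 (63.8%) against 67.2%, and the E-box CACGTG in 6 (10.3%) against 11.3%. The ETS and YY1 strings were thus more frequent in the members than in either background, while the other 3 strings were about as frequent as in measured genes. Over all 27305 genes these 3 strings were less frequent, at 6.98% (NRF1), 48.3% (SP1) and 8.77% (E-box). These shares are descriptions without a test, the searches allowed matches of different motifs to overlap, and a match is not evidence of binding. Neither background was matched to the members for signal on the arrays.

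The ETS and YY1 letters also differed in where they lay. Among the 73 member promoters, 18 (24.7%) held an ETS match that began in the 50 bases before the start, against 5.05% of 16426 promoters of measured genes. An ETS match after the start was held by 5 (6.85%), against 2.45%. The YY1 match began after the start in 13 (17.8%), against 2.17%. In none of the 73 did it begin in the 50 bases before, where the background was only 0.31%. These shares are of all promoters, so they mix how often a string occurs with where it lies. Among promoters with YY1 letters, a match began after the start in 13 of 17 for members and in 357 of 591 for measured genes. Among those with ETS letters, a match began in the 50 bases before the start in 18 of 26 for members and in 829 of 2089 for measured genes. After the start these counts were 5 of 26 and 402 of 2089, which are similar shares. Both strings occurred together in 5 of 58 genes (8.62%, against 1.26%), and at least 1 of them in 35 (60.3%, against 20.6%).

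The following upstream stretches are shown because they hold the letters counted above, in members named below for the order of their p-values, none of which passed the adjusted threshold. Capitals mark the matches, each stretch is read in the direction of its gene, and a match on the opposite strand appears as its reverse complement (CTTCCGG for the ETS letters, GCCATCTT for YY1). MRPS33 and MRPL14 carry an NRF1 match, MRPS34 has 3 ETS matches and MRPL40 has 1. MRPL47 (YY1, then ETS), MRPL52 (2 YY1 matches) and MRPL32 (YY1) were added after the values were seen, for their upstream YY1 letters.
MRPS33, chr7:141015083-141015122, minus strand: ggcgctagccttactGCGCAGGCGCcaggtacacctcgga
MRPL14, chr6:44127407-44127446, minus strand: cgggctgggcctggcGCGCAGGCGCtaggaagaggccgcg
MRPS34, chr16:1773135-1773220, minus strand: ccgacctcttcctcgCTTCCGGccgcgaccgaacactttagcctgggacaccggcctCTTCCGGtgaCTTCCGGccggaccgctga
MRPL40, chr22:19432519-19432544, plus strand: tggaggggcgcacgcCCGGAAGcggc
MRPL47, chr3:179604656-179604745, minus strand: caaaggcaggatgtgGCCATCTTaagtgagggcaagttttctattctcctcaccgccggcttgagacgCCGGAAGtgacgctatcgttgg
MRPL52, chr14:22829774-22829845, plus strand: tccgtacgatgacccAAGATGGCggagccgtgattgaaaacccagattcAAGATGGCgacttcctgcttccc
MRPL32, chr7:42932139-42932176, plus strand: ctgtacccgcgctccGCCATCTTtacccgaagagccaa

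**Figure D1:**
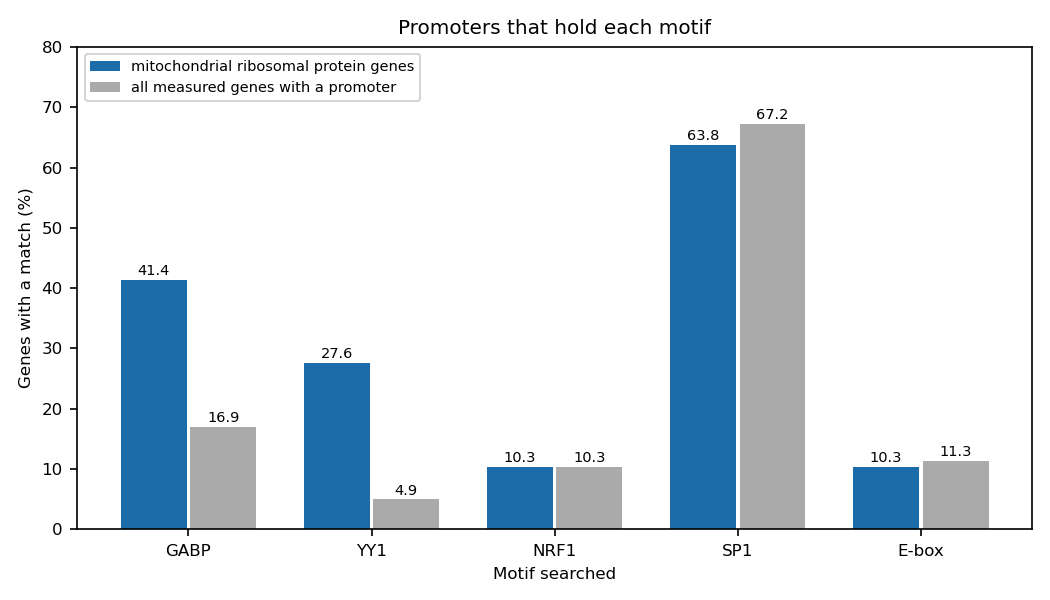
Percent of genes with at least 1 promoter match to each searched motif, for the 58 mitochondrial ribosomal protein genes with a RefSeq promoter (blue) and for the 11386 measured genes with one (grey). The blue bar is higher for the ETS letters (GABP, 41.4% against 16.9%) and YY1 (27.6% against 4.93%), and the bars are close for NRF1, SP1 and the E-box.

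On the arrays, most members gave clear signal. MRPL13, MRPL49 and MRPS33 lay below the median signal, at percentiles 49, 42 and 37 of all probe sets. All 65 probe sets had a mean above the lower quartile of all probe sets, 62 were above the median and 47 above the upper quartile, and member means ran from 5.58 (MRPS33) to 10.83 (MRPL42). Signals of different probe sets do not rank transcripts by abundance, so the genes are compared only with themselves across arrays. The SD between arrays of a group had a median of 0.12 for the members and 0.12 for all 14232 genes.

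The comparison of Klotho-treated with control cells asked whether transcripts of the mitochondrial ribosome differ after 3.5 h. No member passed the threshold of an adjusted p under 0.05 in limma: 0 of 65 passed, the smallest adjusted p was 0.998, and 0 of 65 had an unadjusted p under 0.05. Over all 22011 probe sets the adjusted threshold was passed by 0.0% and the unadjusted one by 3.19%, and over the 14232 genes the unadjusted one by 2.07%. For 3 members the groups did not overlap, each time with the treated cells lower (MRPL2, MRPL15 and MRPS16), and there were 0 in the other direction. Groups did not overlap for 7.89% of all genes (5.3% lower and 2.59% higher), so the 3 members do not exceed the background.

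As deposited, 50 members were lower and 15 higher in treated cells, with a median difference of -0.05, beside 62.6% lower and a median of -0.03 over all genes. Among the genes with signal above the median, where nearly all members lie, 76.0% were lower with a median of -0.06. Other scalings of the arrays gave another split: 32 were lower and 33 higher after median centring of each array, and 36 lower and 29 higher with quantile normalization and with cyclic loess. All genes moved with it, to 42.7%, 46.8% and 50.3% lower. The number higher went from 15 to 27 without control array 1, to 25 without control array 3 and to 8 without control array 2, and the median difference ranged from -0.12 without control array 2 to -0.01 without control array 1. The balance of higher and lower members is therefore not a difference that stands apart from the scaling or from single control arrays.

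The arrays set bounds on each difference. The standard error of a member's difference had a median of 0.10, from 0.07 to 0.26. The 95% interval included 0 for all 65, stayed inside a 2-fold change up or down for all 65, and inside a 1.5-fold change for 61 (93.8%, against 91.7% of all genes). The 4 whose intervals reached past a 1.5-fold change were MRPL33, MRPL41, MRPL49 and MRPS33. In 40 members the difference was smaller than 0.1 in size. The median size of a difference was 0.07 for the members and 0.07 for all genes, so small differences were not particular to the members. These bounds hold gene by gene and for the signal of the probe set.

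**Figure D2:**
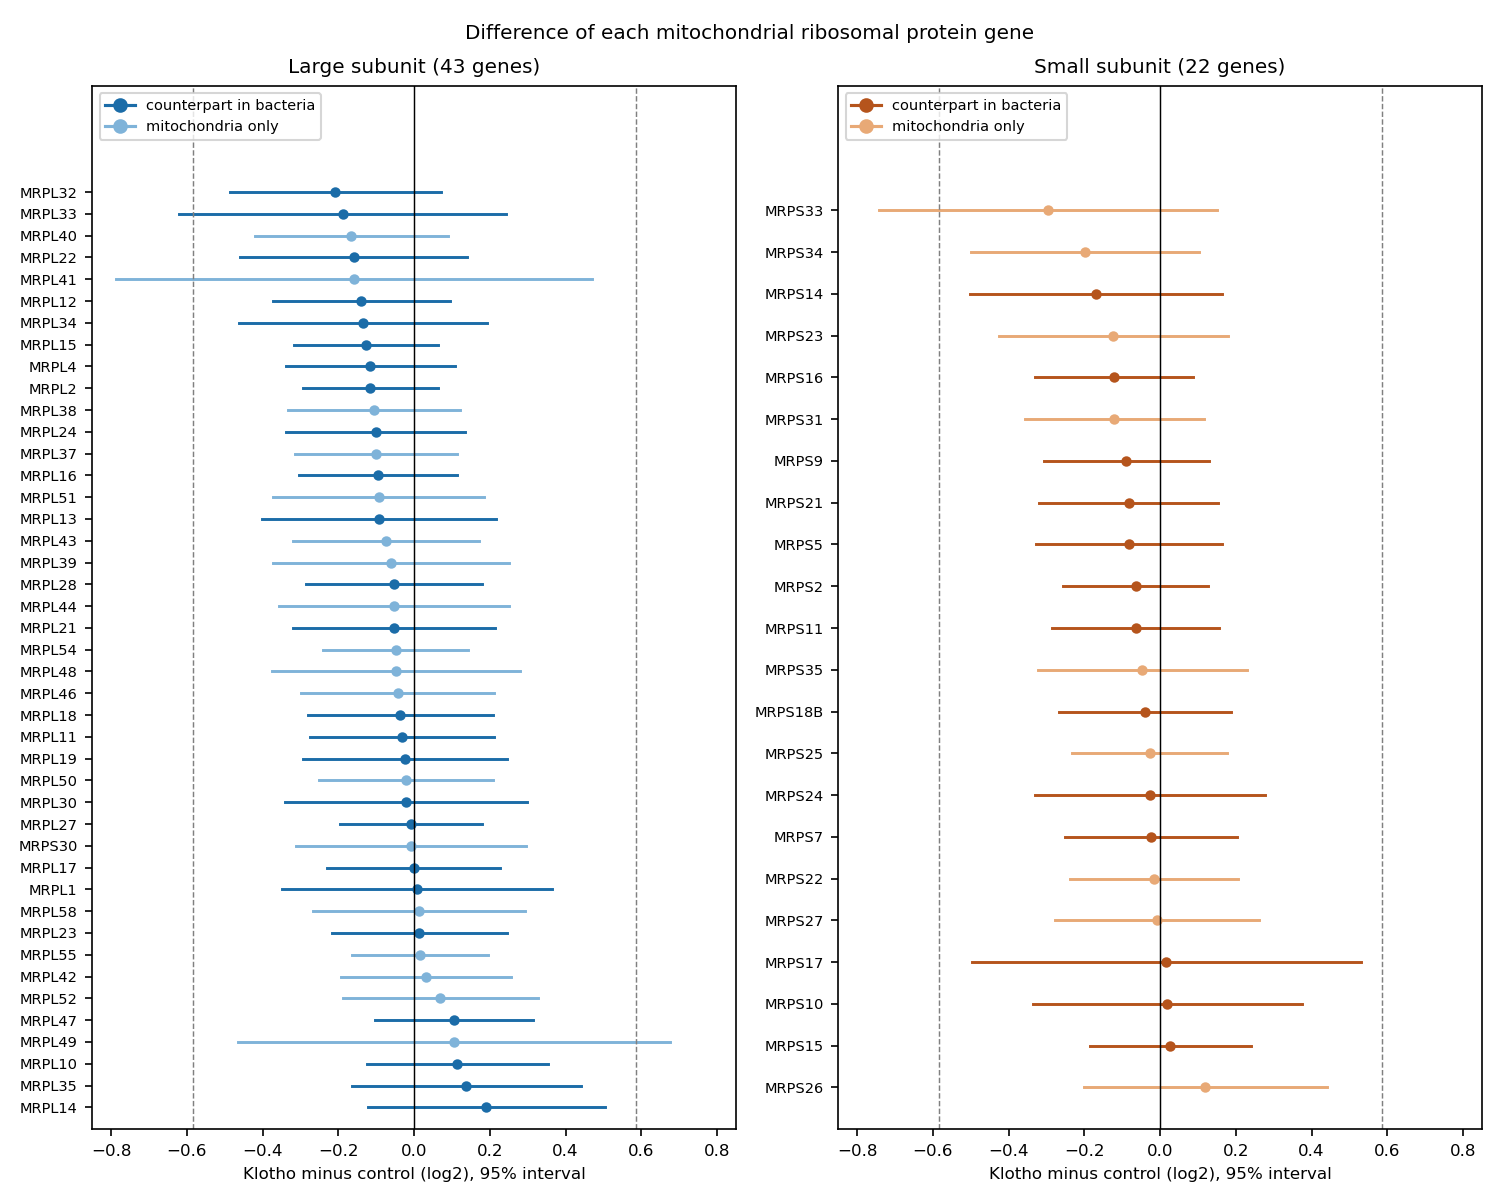
Difference of each member, Klotho minus control on the log2 scale (points), with limma 95% intervals (lines); dashed lines mark a 1.5-fold change in either direction, and shades separate proteins with a counterpart in bacteria from those of mitochondria alone. Every interval crosses 0, and the longest are those of MRPL41, MRPL49, MRPS17 and MRPS33.

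The subunits and the age of the proteins gave similar counts. Of the 43 large subunit genes 32 were lower (median -0.05), and of the 22 small subunit genes 18 (median -0.06). Among large subunit genes with a counterpart in bacteria 19 of 25 were lower, and among those found in mitochondria alone 13 of 18. In the small subunit these were 10 of 13 and 8 of 9. RefSeq's synonyms place MRPL55 with the bacterial proteins and MRPS18B with those of mitochondria, opposite to the lists used here, and 62 of 64 named genes were placed alike. In each of the 4 classes 0 genes had an unadjusted p under 0.05, and differences between the classes were not tested.

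The 6 lower members with the smallest p were MRPL32, MRPL15, MRPS33, MRPS34, MRPL40 and MRPL2. MRPL32, a large subunit protein that has to be cut by the mitochondrial m-AAA protease before it joins the ribosome, read 9.68, 9.49 and 9.88 on control arrays 1 to 3 and 9.50, 9.39 and 9.52 on treated arrays 1 to 3. Only control array 2 fell within the treated range, and the difference was -0.21 ± 0.12 (SE, 95% interval -0.49 to 0.07) with a limma adjusted p of 0.998. MRPS33, a small subunit protein of mitochondria alone, had the dimmest probe set of the members. It read 5.93, 5.34 and 5.90 in control and 5.26, 5.61 and 5.42 in treated cells. Here too control arrays 1 and 3 were above every treated array and control array 2 was not, and this largest difference among the members was -0.30 (95% interval -0.74 to 0.15). MRPS34, whose loss in patients destabilises the small subunit, had the same arrangement, with 9.05, 8.66 and 8.96 in control and 8.72, 8.79 and 8.57 in treated cells (difference -0.20, 95% interval -0.50 to 0.10). With 1 array left out at a time, these differences were largest without control array 2, at -0.30 for MRPL32, -0.49 for MRPS33 and -0.31 for MRPS34. They were smallest without control array 3 for MRPL32 (-0.11) and without control array 1 for MRPS33 (-0.19) and MRPS34 (-0.12).

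For MRPL2, which lies near the catalytic centre of the large subunit, control arrays read 8.84, 8.76 and 8.84 and treated arrays 8.74, 8.69 and 8.66. For MRPL15, another large subunit protein kept from bacteria, they read 9.46, 9.44 and 9.54 against 9.32, 9.31 and 9.44. Both had groups that did not overlap, with differences of -0.12 (95% interval -0.29 to 0.06) and -0.13 (95% interval -0.32 to 0.06). MRPS16, a small subunit protein mutated in a form of combined oxidative phosphorylation deficiency, was the third such gene, at 10.98, 10.75 and 10.85 in control and 10.75, 10.72 and 10.74 in treated cells. Control array 2 and treated array 1 of MRPS16 were equal to the second decimal, and the difference was -0.12 (95% interval -0.33 to 0.09). MRPL40, a gene of the region deleted in 22q11 syndrome, read 7.74, 7.70 and 7.81 in control and 7.40, 7.64 and 7.72 in treated cells, so that only treated array 3 reached the control range.

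The 6 higher members with the smallest p were MRPL14, MRPL47, MRPL10, MRPL35, MRPS26 and MRPL52. MRPL14, which lies on the face of the large subunit that meets the small one, read 7.69, 7.46 and 7.85 in control and 8.01, 7.73 and 7.83 in treated cells. Treated array 1 was the only one above all controls, and the difference of 0.19 (95% interval -0.12 to 0.50) was the largest in this direction. Array quality weights lowered it to 0.06, and it was 0.09 without control array 2 and 0.11 when treated array 1 was left out. MRPL35, kept from bacteria, read 9.59, 9.35 and 9.73 against 9.85, 9.63 and 9.61, a difference of 0.14 (95% interval -0.16 to 0.44). MRPL47, a protein at the exit of the tunnel through which the new chain leaves, read 10.02, 10.02 and 10.10 against 10.14, 10.06 and 10.27, a difference of 0.11. MRPS26, found in mitochondria alone, read 8.04, 7.61 and 7.90 in control and 8.01, 8.07 and 7.83 in treated cells. MRPL52 measured 6.45 ± 0.12 in control and 6.52 ± 0.14 in treated cells (SD, n = 3). In all 6 the groups overlapped.

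**Figure D3:**
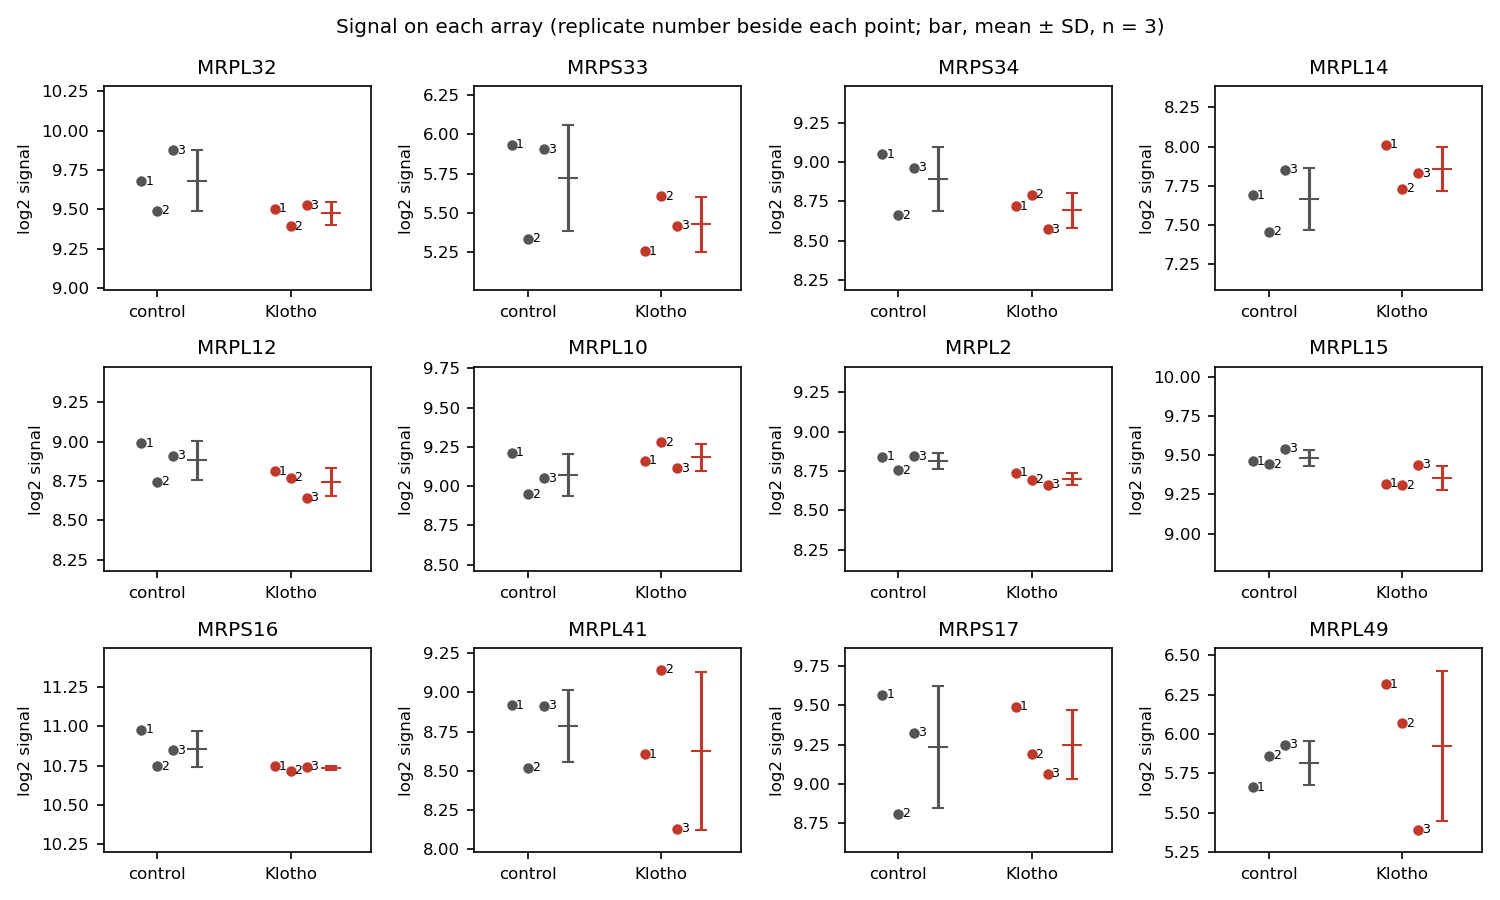
Log2 signal of 12 members on each array (points, with the replicate number beside each; grey control, red Klotho) and the mean with its SD (n = 3) for each group; every panel spans the same height, and levels are not comparable between panels. Control array 2 lies below control arrays 1 and 3 in every panel but that of MRPL49, and MRPL41, MRPS17 and MRPL49 show the widest spread.

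The proteins of the stalks, the mobile arms that guide transfer RNAs and translation factors, were measured as MRPL1, MRPL10, MRPL11 and MRPL12. MRPL12, which recruits the factors and has also been described as a partner of the mitochondrial RNA polymerase, read 8.99, 8.74 and 8.91 in control and 8.81, 8.77 and 8.64 in treated cells, a difference of -0.14 (95% interval -0.37 to 0.10). MRPL10, which anchors it, read 9.21, 8.95 and 9.05 against 9.16, 9.28 and 9.11, a difference of 0.11 (95% interval -0.12 to 0.35). The values of anchor and partner lay in opposite directions, each with a standard error of 0.10 and an interval that included 0. MRPL11 measured 6.91 ± 0.08 and 6.88 ± 0.14 in control and treated cells (SD, n = 3), and MRPL1, of the other stalk, 8.93 ± 0.26 and 8.94 ± 0.12.

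Around the exit tunnel, MRPL17, MRPL22, MRPL23 and MRPL24 line or ring the opening. MRPL17 measured 9.13 ± 0.14 in control and 9.13 ± 0.02 in treated cells (SD, n = 3), and MRPL23 8.32 ± 0.11 and 8.33 ± 0.10, with intervals of -0.23 to 0.23 and -0.22 to 0.24. MRPL22 read 8.26, 8.12 and 8.31 in control and 7.88, 8.04 and 8.29 in treated cells, with treated array 3 inside the control range and the other treated arrays below it. MRPL24 differed by -0.10 (95% interval -0.34 to 0.13). MRPL39 (-0.06), which resembles a threonyl-tRNA synthetase, and MRPL44 (-0.05), which has the fold of a ribonuclease, also lie on this side, and their intervals were -0.37 to 0.25 and -0.36 to 0.25. Each interval in this group included 0.

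The small subunit reads the messenger RNA. Of the proteins at its channel and decoding site, MRPS2 measured 8.50 ± 0.05 in control and 8.43 ± 0.08 in treated cells (SD, n = 3), MRPS5 8.79 ± 0.15 and 8.71 ± 0.07, and MRPS24 8.74 ± 0.21 and 8.71 ± 0.10. Humans have 3 relatives of a single bacterial protein in MRPS18A, MRPS18B and MRPS18C, of which MRPS18B alone had its own probe set, at 9.77 ± 0.14 and 9.73 ± 0.04 (95% interval of the difference -0.27 to 0.19). MRPL37 and MRPS30 are a further related pair, both in the large subunit. MRPL37 differed by -0.10 (95% interval -0.31 to 0.11) and MRPS30 by -0.01 (95% interval -0.31 to 0.30).

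Several members are known for inherited defects of mitochondrial translation. Among the small subunit genes of this kind MRPS7 differed by -0.02, MRPS14 by -0.17, MRPS22 by -0.02, MRPS23 by -0.12 and MRPS25 by -0.03. MRPS14 read 8.999, 8.77 and 8.78 in control and 8.61, 8.49 and 8.94 in treated cells, with treated array 3 apart from the other treated arrays. The intervals of MRPS7 (-0.25 to 0.20), MRPS22 (-0.24 to 0.21) and MRPS25 (-0.23 to 0.18) were among the narrower ones. MRPL58, which frees chains from stalled ribosomes, measured 8.93 ± 0.20 in control and 8.95 ± 0.05 in treated cells (SD, n = 3).

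A few members varied more between arrays than the rest. MRPL41, described as able to promote cell death, read 8.92, 8.52 and 8.91 in control and 8.61, 9.14 and 8.13 in treated cells, so that treated arrays 2 and 3 were the highest and the lowest of the 6 and differed by 1.01. MRPL49 read 5.66, 5.86 and 5.93 in control and 6.32, 6.07 and 5.39 in treated cells, with treated array 3 lowest. MRPS17 read 9.57, 8.81 and 9.33 in control and 9.49, 9.19 and 9.07 in treated cells, with control array 2 lowest. The differences of these genes, -0.16, 0.11 and 0.02, were each smaller than the SD within a group. MRPL41, MRPL49 and MRPS17 are named here for their spread, after their values were seen.

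Across arrays the members deviated together, and the widest gap between array medians lay among the controls. As deviation from each gene's mean over the 6 arrays, the median member stood at 0.11 on control array 1, -0.10 on control array 2 and 0.09 on control array 3, and at -0.05, -0.01 and 0.01 on treated arrays 1 to 3. Control array 2 was below the gene's own mean for all but 8 of the 65, while 54 were above it on control array 1 and 53 on control array 3. The members' medians on the treated arrays thus lay between those of the controls, which does not hold gene by gene: a treated array was the lowest of the 6 for 19, 9 and 11 members (treated arrays 1 to 3) and the highest for 6, 4 and 4. Control array 2 was the lowest control for 53 members (81.5%), against 48.2% of all genes, many of them dimmer than the members. It was above the gene's own mean for 743 of 3497 genes with signal above the upper quartile. The same held for 4 of 47 other mitochondrial translation genes, so a low control array 2 was not particular to the members.

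Other genes shared part of this pattern. Over all 14232 genes the medians were 0.05, -0.03 and 0.02 in control and -0.04, -0.01 and 0.00 in treated arrays, and over the 3497 genes with signal above the upper quartile 0.11, -0.07 and 0.03 and -0.07, -0.02 and 0.04. The members were therefore close to other bright genes on control array 1 and stood higher than them on control array 3 (0.09 against 0.03). With median centring, quantile normalization and cyclic loess, the median member remained below 0 on control array 2 (-0.08, -0.05 and -0.04) and above 0 on control array 3 (0.06 under each), whereas on control array 1 it was above 0 with median centring (0.04) and within 0.01 of 0 with the others. Under these scalings the 3497 bright genes stood at -0.05, -0.01 and -0.01 on control array 2 and within 0.01 of 0 on control array 3. The 47 other mitochondrial translation genes stood at -0.10, -0.09 and -0.09 on control array 2 and at 0.02 under each on control array 3.

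**Figure D4:**
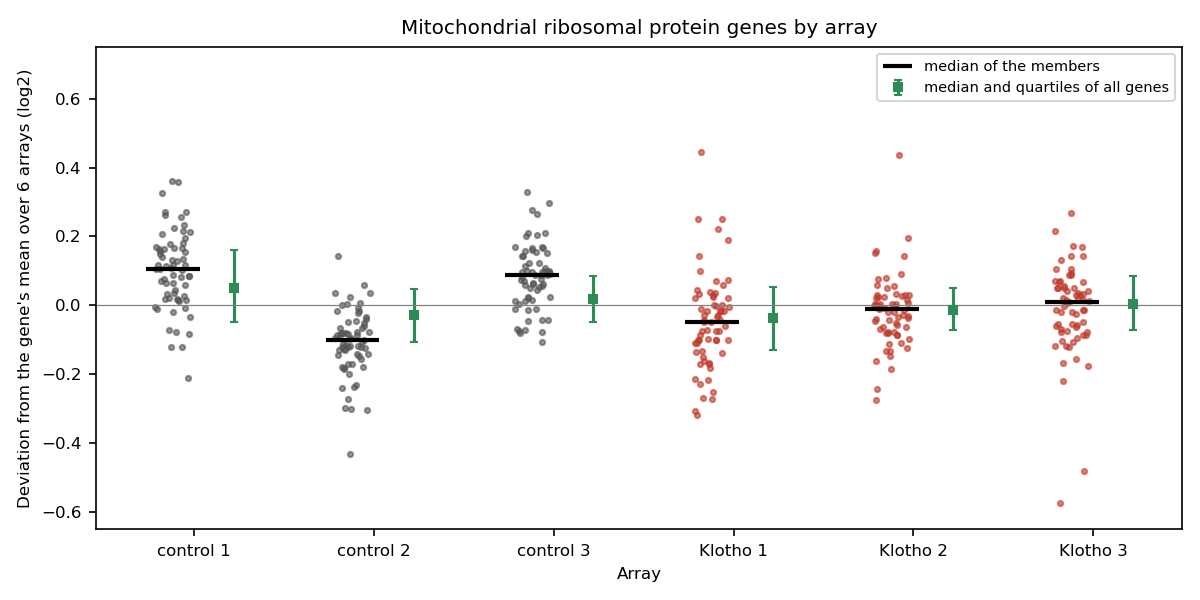
Deviation of each of the 65 members from its own mean over the 6 arrays (points, log2; grey control, red Klotho), with the members' median (black bar) and, beside it, the median and quartiles of all 14232 genes (green). The members' median is 0.11 and 0.09 on control arrays 1 and 3 and -0.10 on control array 2, and the medians of the treated arrays lie between.

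Other genes of mitochondrial translation were examined from lists chosen by function. Of 47 measured genes in these lists 37 (78.7%) were lower and 10 higher as deposited (median -0.05). The shares lower were 62.6% over all genes and 76.0% over genes with signal above the median (median -0.06). The 37 are thus near the share of other bright genes, and the counts by list below have the same background. In these lists 0 genes passed the adjusted threshold and 0 had an unadjusted p under 0.05. Mitoribosomal proteins under other names (3 measured of 5) held GADD45GIP1 (-0.02) and CHCHD1 (-0.05). Of 19 assembly and RNA modification factors 15 were lower, with the RNA helicase DHX30 at 8.23, 8.36 and 8.41 in control and 8.18, 8.21 and 8.22 in treated cells, groups that did not overlap (difference -0.13, 95% interval -0.33 to 0.06), and METTL15, a methyltransferase of the small ribosomal RNA, at -0.35 (95% interval -0.97 to 0.27).

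Of 14 translation factors and messenger RNA regulators 11 were lower. The release factor gene MTRF1L differed by -0.37 (95% interval -0.91 to 0.16), and TUFM, the elongation factor that brings transfer RNAs to the ribosome, read 10.11, 10.01 and 10.18 in control and 10.00, 10.01 and 9.91 in treated cells (-0.13, 95% interval -0.32 to 0.07). Of 5 genes of mitochondrial transcription 4 were lower, with TFB2M at -0.08 and the polymerase gene POLRMT at 0.08. Among 6 measured nuclear regulators 5 were lower: ESRRA, an orphan nuclear receptor of energy metabolism, read 7.80, 7.50 and 7.75 in control and 7.46, 7.59 and 7.36 in treated cells (-0.21, 95% interval -0.49 to 0.06), and the coactivator PPRC1 differed by -0.11. Over these 47 genes the median deviation was 0.14, -0.13 and 0.05 on control arrays 1 to 3, so that control array 2 was the low control here as well.

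The members' differences are given here by promoter letters. The 24 genes with ETS letters had a median difference of -0.06 with 19 lower, and the 34 without them -0.04 with 27 lower. The 16 with YY1 letters had a median of -0.02 with 11 lower, and the 42 without -0.06 with 35 lower. Differences between these subsets were not tested.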

How the data were processed

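Total RNA of 6 MO3.13 samples was amplified from 100 ng (NuGEN) and hybridised, per the labels' protocols. The authors deposited 1 table of log2 values per probe set, and per the submitters' processing notes these come from RMA; its software, version and filters are not given in the sources used. Of 22011 probe sets, 14432 had 1 gene symbol, 2408 several and 5171 none in the annotation. A gene was represented by its own probe set of highest mean. limma 3.58.1 in R 4.3.3 was fitted to all probe sets (lmFit, eBayes, 2-sided, Benjamini-Hochberg over all, threshold 0.05) and was tested on simulated data. Intervals are 95% intervals. Precision is limited by the number of arrays.

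The members and lists were chosen with earlier results of these data known, and the lists were not tested as sets. Named members are the 6 with the smallest p in each direction and a fixed set by role, of which 26 had a probe set; of each other list the 2 with the smallest p are named. The 15 alternatives were other scalings, filters, variance models, weights, a replicate block and leaving out each array.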

Additional observations from a re-analysis of the deposited data

How the results depend on the processing

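No member passed the adjusted threshold under any of the 15 alternatives, nor did any probe set, and the smallest adjusted p of a member was 0.653, with array quality weights. The number of members lower in treated cells was 32 with median centring, against 50 as deposited, and ranged from 38 to 57 when 1 array was left out (median difference -0.12 to -0.01). The median difference was -0.05 as deposited and 0.00 with median centring. The number of the 65 members with an unadjusted p under 0.05, 0 as deposited, was 2 with array quality weights (MRPL32, MRPL15). It was 3 without control array 2 (MRPL32, MRPS33, MRPS34) and 4 without treated array 3 (MRPL22, MRPL33, MRPL49, MRPS14). Over all 22011 probe sets the count rose in these alternatives as well. It was 703 as deposited (3.19%), 1644 with array quality weights, 879 without control array 2 and 1200 without treated array 3. That background is of probe sets, and the matching counts over genes are not given for these alternatives. The members named here are therefore not shown to stand apart from other genes. Without the lower quartile of signal, where fewer probe sets were tested, the count of probe sets was 436. The 14232 genes fitted alone gave 438, against 295 of the same genes in the main fit. With the replicate number as a block 50 members were lower and 0 passed the threshold; same-numbered arrays had correlated deviations of -0.18, 0.06 and -0.14, so the numbers share no visible pairing. Sign changes occurred for up to 18 members under an alternative, in differences that passed no adjusted threshold. Leaving out dim probe sets removed none of the 65.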
